A study of Mus musculus with 10 samples.

Results

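The genes described here code for the proteins of the mitochondrial ribosome. They were taken by symbol, as every counted gene named Mrps or Mrpl followed by a number and at most 1 letter from a to c. The pattern found 78 of 55573 genes: 29 with an Mrps symbol, whose proteins are assigned to the small subunit, and 49 with an Mrpl symbol, assigned to the large subunit. All 78 are annotated as protein coding, and 77 had enough counts to be tested. The exception was Mrpl53, with a single count in EGF replicate 2 and 0 in the other 9 libraries.

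RNA was sequenced in bulk from hematopoietic stem and progenitor cells (HSPCs) of mouse bone marrow, 5 libraries from animals given epidermal growth factor (EGF) under the skin and 5 from animals given saline by the same route. Every library of both groups came from C57BL/6 mice aged 16 weeks, collected 6 weeks after total body irradiation with 500 cGy, so both groups carry the radiation injury. The question was how expression in these cells differs between EGF and saline after irradiation. Whether each library stands for its own animal is not stated, so any p-value refers to the variation among these libraries, some of which may be technical. In such bulk RNA, fewer cells of a type and less RNA per cell cannot be told apart.

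Total counts lay between 6805106 and 8370820 per library. EGF replicate 5 stood apart from the other 9 libraries: it had counts for 12731 genes, against 18734 to 20046 in the others, and 1.62% of its counts came from the nuclear RNA Malat1. That share was 0.908% and 0.905% in EGF replicates 3 and 4, 0.521% and 0.387% in EGF replicates 1 and 2, and 0.336% to 0.444% in the Saline libraries. All 12 HSPC markers listed for the check, such as Kit, Gata2 and Cd34, were expressed in both groups, with a summed level of 2864 to 3592 CPM in EGF libraries and 2587 to 2879 CPM in Saline libraries (CPM, counts of a gene per 1e+06 counts of the library, scaled by the trimmed mean of M values). In EGF replicate 5, which had the highest of these sums, 1 of the 12 markers had a count of 0. Markers of neutrophils and their precursors, led by Mpo, which granulocyte progenitors also express, summed to 1686 to 2751 CPM in EGF libraries and 1565 to 5528 CPM in Saline libraries. Of these 9 markers, 4 had a log2 fold change (EGF over Saline) below 0 with all 10 libraries (median 0.18). When EGF replicate 5 was left out, 9 of 9 did (median -1.51), with 0 called by edgeR at an adjusted p under 0.05. Plasma cell markers, led by Jchain, summed to 166 to 902 CPM in EGF libraries and 676 to 1456 CPM in Saline libraries. Markers of monocytes and macrophages summed to 33.1 to 57.4 CPM in EGF libraries and 32.0 to 126.9 CPM in Saline libraries, those of stroma and endothelium to 162 to 659 CPM in EGF libraries and 174 to 810 CPM in Saline libraries, those of megakaryocytes to 105 to 195 CPM in EGF libraries and 109 to 168 CPM in Saline libraries, and those of T and NK cells to 3.92 to 48.4 CPM in EGF libraries and 40.8 to 55.1 CPM in Saline libraries. Summed markers of B cells stayed at or below 16.1 CPM and of red cells at or below 31.3 CPM in every library.

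The mitochondrial ribosome makes the few proteins that mitochondrial DNA codes for, all of them parts of the respiratory chain and ATP synthase. Its rRNAs come from mitochondrial DNA, but all of its proteins are coded in the nucleus, made in the cytosol and imported, so that the ribosome of one compartment builds that of the other. Some of its proteins have a counterpart in the bacterial ribosome and others are found in mitochondria alone. Blood stem cells at rest are described as relying less on respiration than dividing progenitors do, and mitochondrial translation is needed as they divide and mature.

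The 78 genes lie on 17 chromosomes, with 11 of them on chromosome 11, 8 on chromosome 17 and 7 on chromosome 6. For 18 of the 78 (23.1%) a protein coding gene on the other strand starts within 1000 bases upstream, against 10.9% of 11288 tested coding genes. Among these pairs are Mrps12 with Sars2, which charges the serine tRNA of mitochondria (172 bases), Mrpl32 with the proteasome gene Psma2 (75 bases), and Mrpl49 with Fau, which codes for a cytosolic ribosomal protein (59 bases). Promoter windows of 250 bases before to 50 bases after the start were at hand for 69 of the members (RefSeq, build GRCm38.p6). In these, the core of the ETS family motif, CCGGAAG on either strand, was in 26 (37.7%), against 13.0% of 17492 coding genes. The core AAGATGG of the motif of YY1 was in 13 (18.8%, against 7.18%), and the core GCATGCG of NRF1, a regulator of nuclear genes for mitochondrial proteins, was in 8 (11.6%, against 4.96%). The GC box GGGCGG was in 49.3% of the members and 49.2% of coding genes, CCAAT in 39.1% of the members and 42.3% of coding genes, and TATAAA in 7.25% of the members and 14.8% of coding genes, each on either strand. The ETS and YY1 cores can share their letters AAG, and a window that holds several motifs counts once for each. The median GC content was 58.7% in the members' windows and 56.3% in those of coding genes. A match is a string of letters and not a shown site.

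The windows of 4 members are printed, those on which the results below turn, each 5′ to 3′ on the strand of its gene, with the letters of an ETS or YY1 core in capitals. Mrps11 (chr7:78782881-78783180, + strand) and Mrpl46 (chr7:78783040-78783339, - strand) are a head-to-head pair whose RefSeq starts lie 42 bases apart, so that the windows share 141 bases. They took opposite extremes in 1 library, EGF replicate 5. That library was the lowest or highest of the 10 for 76.6% of members and 81.3% of all tested genes, and a link of the levels to the windows was not tested. Mrps23 (chr11:88204138-88204437, + strand) and Mrpl51 (chr6:125191950-125192249, + strand) are a member whose groups did not overlap and the member with the lowest p once that library was left out. The YY1 core of Mrps11 is on the other strand 106 bases before its start. The ETS core of Mrpl51 is 90 bases before its start, and that of Mrps23 is on the other strand just after the start. The window of Mrpl46 holds neither core.
Mrps11: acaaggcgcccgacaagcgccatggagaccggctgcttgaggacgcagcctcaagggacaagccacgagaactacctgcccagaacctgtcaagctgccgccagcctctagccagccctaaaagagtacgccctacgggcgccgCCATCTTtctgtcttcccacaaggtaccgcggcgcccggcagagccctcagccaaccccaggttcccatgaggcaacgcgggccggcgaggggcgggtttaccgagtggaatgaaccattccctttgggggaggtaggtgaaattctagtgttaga
Mrpl46: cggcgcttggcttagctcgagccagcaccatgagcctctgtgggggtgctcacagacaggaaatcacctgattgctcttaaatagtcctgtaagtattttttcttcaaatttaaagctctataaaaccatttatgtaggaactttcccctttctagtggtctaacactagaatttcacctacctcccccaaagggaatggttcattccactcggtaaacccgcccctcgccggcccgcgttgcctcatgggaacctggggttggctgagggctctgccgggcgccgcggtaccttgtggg
Mrps23: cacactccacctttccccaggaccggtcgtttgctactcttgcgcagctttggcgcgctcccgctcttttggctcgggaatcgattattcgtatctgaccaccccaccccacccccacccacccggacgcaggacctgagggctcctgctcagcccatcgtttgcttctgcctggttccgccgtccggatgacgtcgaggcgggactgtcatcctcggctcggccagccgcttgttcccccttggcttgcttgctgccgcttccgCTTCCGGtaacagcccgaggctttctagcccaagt
Mrpl51: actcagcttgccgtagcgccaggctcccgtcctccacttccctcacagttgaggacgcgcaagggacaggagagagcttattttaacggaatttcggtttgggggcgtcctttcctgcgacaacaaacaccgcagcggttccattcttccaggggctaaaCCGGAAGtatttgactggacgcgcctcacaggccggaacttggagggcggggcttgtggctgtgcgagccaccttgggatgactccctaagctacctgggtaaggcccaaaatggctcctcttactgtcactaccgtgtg

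Levels of different members were compared per length, as CPM per kb of exons, where the exon length is the union over all annotated transcripts. Averaged over the 10 libraries, tested small-subunit genes lay between 3.12 and 26.4 CPM per kb with a median of 7.53, and large-subunit genes between 1.95 and 55.0 with a median of 10.4. All tested genes had a median of 5.70 CPM per kb, nuclear genes of the respiratory chain 25.5, and genes of cytosolic ribosomal proteins 225. The members are thus transcripts of middle abundance, far below the proteins of the cytosolic ribosome.

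Mrpl18, whose protein helps bring 5S rRNA into human mitochondria, had the highest level per length in both groups, at 55.1 ± 7.50 CPM per kb in EGF libraries and 54.9 ± 6.74 in Saline libraries (SD, n = 5 each). Mrpl12, a protein of the stalk that binds translation factors and in human cells also binds the mitochondrial RNA polymerase, was at 32.1 ± 3.85 CPM per kb in EGF libraries and 33.99 ± 4.96 in Saline libraries. Mrpl52 was at 25.7 ± 11.2 CPM per kb in EGF libraries and 38.1 ± 2.46 in Saline libraries, and Mrpl24, which has a bacterial counterpart, at 26.5 ± 7.19 in EGF libraries and 24.96 ± 3.05 in Saline libraries. In Saline libraries Mrpl18 was above all others by more than the spread, while Mrpl12 and Mrpl52 did not differ beyond theirs. In the small subunit Mrps21, Mrps15 and Mrps28, which have bacterial counterparts, and Mrps23 led the order. Mrps15 was at 16.3 ± 7.66 CPM per kb in EGF libraries and 21.9 ± 1.70 in Saline libraries, and Mrps28 at 16.7 ± 8.80 in EGF libraries and 19.97 ± 3.16 in Saline libraries. Mrps23 was at 11.8 ± 5.53 CPM per kb in EGF libraries and 18.1 ± 1.95 in Saline libraries, and Mrps21 at 33.2 ± 36.0 in EGF libraries and 19.6 ± 2.46 in Saline libraries. In Saline libraries neighbours in the order among these 4 did not differ beyond the spread. Mrps23 lay above Mrps24, the next in the order at 15.6 ± 1.17 CPM per kb in Saline libraries, by more than the SD of either. The high EGF mean of Mrps21 came from 1 library.

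**Figure D1:**
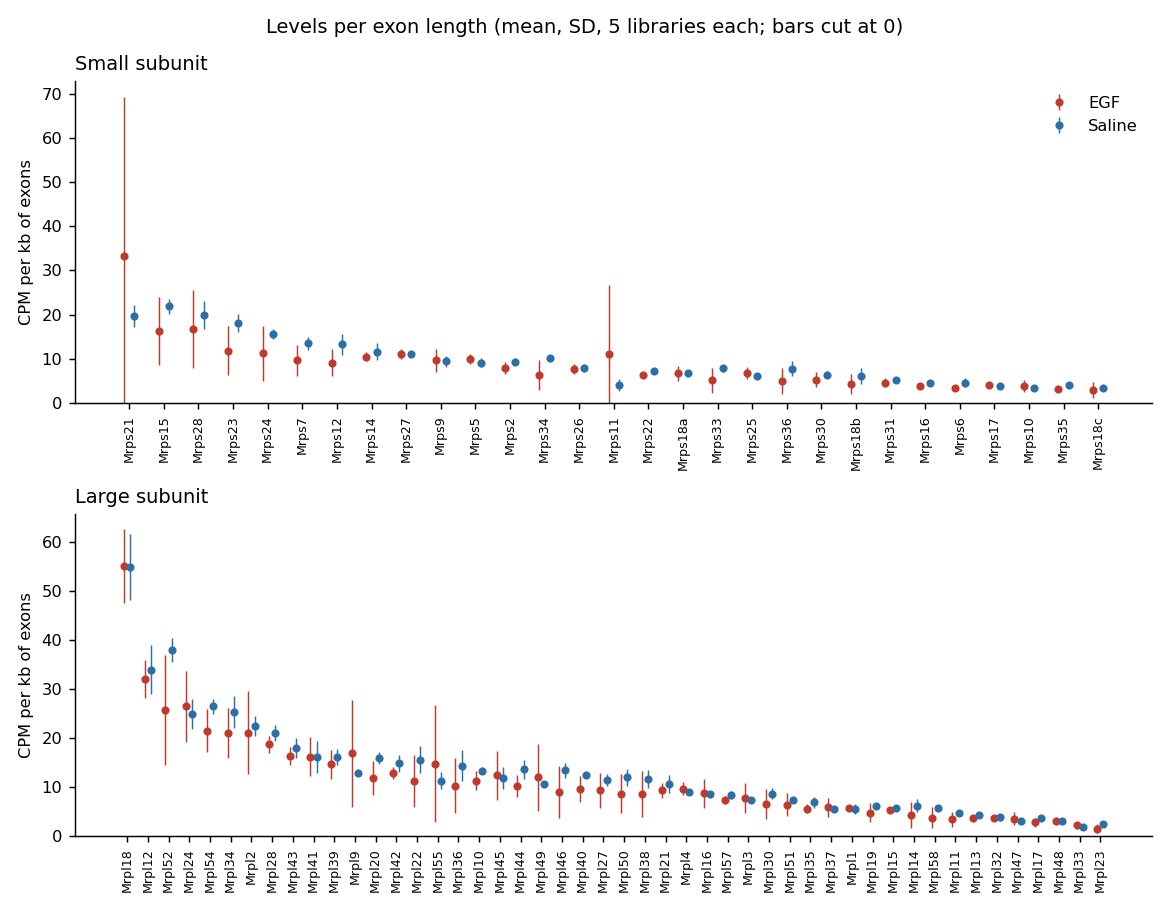
Level of each tested member per length (CPM per kb of exons, vertical axis), as the mean and SD of 5 EGF libraries (red) and 5 Saline libraries (blue), small subunit above and large subunit below, ordered by the mean of all libraries. Mrpl18 stands above the rest at about 55.0 CPM per kb, and SD bars are wider in EGF libraries for most members; bars that would pass below 0 are cut there.

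Summed over each subunit, the members were lower on average in EGF libraries, but the groups overlapped. The 29 small-subunit genes summed to 680, 687, 635, 682 and 676 CPM in EGF replicates 1 to 5, and to 667, 683, 791, 739 and 739 CPM in Saline replicates 1 to 5. Saline replicates 1 and 2 were at the level of the EGF libraries, and Saline replicates 3, 4 and 5 were above all of them. The large-subunit genes summed to 1197, 1255, 1134, 1114 and 1258 CPM in EGF replicates 1 to 5, and to 1215, 1253, 1396, 1357 and 1351 CPM in Saline replicates 1 to 5. The order was alike, with Saline replicates 3 to 5 again on top. The same 3 Saline libraries had the highest summed markers of neutrophils (3534, 5528 and 3863 CPM) and of monocytes and macrophages (71.8, 126.9 and 82.8 CPM) of the 10. They also had the lowest summed HSPC markers of the 10 (2587, 2611 and 2730 CPM). The part of cell type differences in the subunit sums was not tested. Means were 672 ± 21.3 CPM in EGF and 724 ± 49.7 CPM in Saline for the small subunit, and 1192 ± 66.7 CPM in EGF and 1314 ± 76.8 CPM in Saline for the large subunit (SD, n = 5 each). The log2 ratios of these means, EGF over Saline, were -0.11 and -0.14, against a pooled SD between libraries of 0.08 on the log2 scale for each sum.

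The balance of the subunits was nearly the same in all libraries. The small subunit's sum was 0.57, 0.55, 0.56, 0.61 and 0.54 of the large subunit's in EGF replicates 1 to 5, and 0.54 to 0.57 of it in Saline libraries. EGF replicate 4 was the highest of the 10 and EGF replicate 5 the lowest. Of all counts, 0.177% to 0.191% in EGF libraries and 0.192% to 0.220% in Saline libraries belonged to the 78 genes. These unscaled shares did not overlap between the groups, with 0.191% in EGF replicate 1 next to 0.192% in Saline replicate 1.

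**Figure D2:**
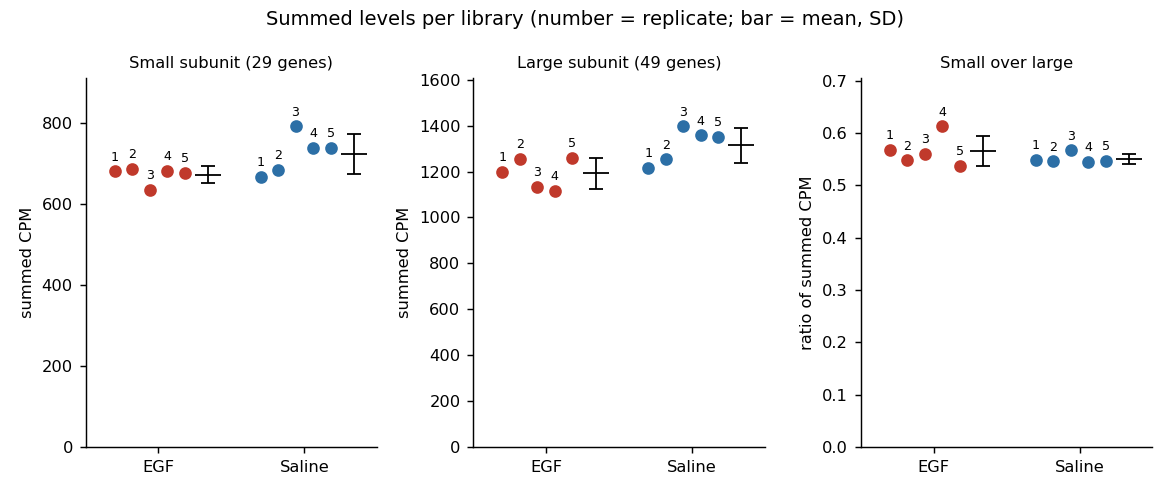
Summed CPM of the small-subunit genes, of the large-subunit genes and the ratio of the sums (vertical axes, from 0) in each EGF (red) and Saline (blue) library, with replicate numbers, group means and SD bars. Saline replicates 1 and 2 sit at the level of the EGF libraries while Saline replicates 3 to 5 lie above them, and the ratio stays between 0.54 and 0.61.

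No member passed the test of EGF against Saline. With p-values of the quasi-likelihood test of edgeR adjusted after Benjamini and Hochberg over all 12874 genes, 0 of 77 tested members were called at an adjusted p under 0.05, and 0.00777% of all tested genes were. The lowest adjusted p of a member was 0.552, and 0 members had an unadjusted p under 0.05, against 8.87% of all tested genes. DESeq2 called 0 of the 65 members to which it gave an adjusted p (0.672% of all genes with one), and limma-voom, weighting samples by quality, called 0 of 77 (0.0932% of all tested genes). Unadjusted p was under 0.05 for 2 of 77 members by DESeq2, against 11.2% of all tested genes, and for 10 of 77 (13.0%) by limma-voom, against 15.3% of all tested genes. Limma-voom gave EGF replicate 5 a weight of 0.026 and the other libraries weights of 0.787 to 2.22.

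The fold changes leaned below 0 in both subunits. With all 10 libraries, 22 of 29 small-subunit genes and 33 of 48 tested large-subunit genes had a log2 fold change (EGF over Saline) below 0, while 51.5% of all tested genes did. The median log2 fold change was -0.26 in the small subunit and -0.19 in the large subunit, against -0.01 over all genes. Single genes spanned -0.67 to 1.46 in the small and -0.67 to 0.38 in the large subunit.

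Mrps23 and Mrps34, proteins of the small subunit with no bacterial counterpart, were the members whose EGF values all lay below all Saline values. Groups did not overlap, in either direction, for 2 of 77 members (2.60%) and for 3.27% of all tested genes, and 1.65% of all tested genes had every EGF value below every Saline value. Mrps23 (chromosome 11, 88204388 to 88211507, + strand) had 25.2, 25.37, 19.3, 18.3 and 4.20 CPM in EGF replicates 1 to 5 and 30.3, 25.42, 26.5, 26.2 and 32.4 CPM in Saline replicates 1 to 5. The groups were separated by a narrow gap between the second replicates, and EGF replicate 5 was far below the rest. Its log2 fold change was -0.61 with a standard error of 0.36 (edgeR adjusted p = 0.596), and -0.36 ± 0.13 (SE) without EGF replicate 5 (edgeR adjusted p = 0.222). Mrps34 (chromosome 17, 24895116 to 24897502, + strand) had 16.3, 16.2, 13.98, 17.9 and 0.42 CPM in EGF replicates 1 to 5 and 22.6, 18.5, 21.3, 20.7 and 20.6 CPM in Saline replicates 1 to 5. EGF replicate 5 held 3 reads of it. The log2 fold change was -0.67 with a standard error of 0.58 (edgeR adjusted p = 0.679), and -0.36 ± 0.12 (SE) without that library (edgeR adjusted p = 0.195). The exons of Mrps34 overlap those of Mapk8ip3 on the other strand over 63.4% and those of Nme3 on the same strand over 37.0% of their bases, and the strand setting of the counting is not given in the sources used here, so its counts cannot be fully told apart from theirs.

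The 5 small-subunit genes of lowest p were Mrps11, described further on, Mrps12, Mrps35, Mrps2 and Mrps7, all but Mrps35 counterparts of bacterial proteins. Mrps12, which lies at the decoding centre, had 10.3, 13.3, 7.85, 11.2 and 4.90 CPM in EGF replicates 1 to 5, and 13.7, 10.2, 13.2, 14.7 and 17.2 CPM in Saline replicates 1 to 5, with a log2 fold change of -0.54 ± 0.28 (SE; edgeR adjusted p = 0.559). EGF replicates 1, 2 and 4 lay within the Saline range and the other 2 below it. Mrps2 averaged 22.9 ± 3.84 CPM in EGF libraries and 27.3 ± 2.005 CPM in Saline libraries, and Mrps7 19.9 ± 7.46 CPM in EGF libraries and 27.9 ± 3.11 CPM in Saline libraries. Mrps35 averaged 27.6 ± 5.97 CPM in EGF libraries and 34.01 ± 3.82 CPM in Saline libraries (SD, n = 5 each). Their log2 fold changes were -0.26, -0.49 and -0.30, with adjusted p of 0.584, 0.584 and 0.582 by edgeR. Mrps15 averaged 27.6 ± 13.0 CPM in EGF libraries and 37.1 ± 2.88 CPM in Saline libraries (log2 fold change -0.43), and without EGF replicate 5 its EGF mean was 33.0 ± 5.06 CPM (n = 4).

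The 3 paralogues of 1 bacterial protein, Mrps18a, Mrps18b and Mrps18c, occupy different places in the ribosome. Mrps18a averaged 24.6 ± 6.52 CPM in EGF libraries and 25.02 ± 2.18 CPM in Saline libraries, and Mrps18b 8.92 ± 4.55 CPM in EGF libraries and 12.7 ± 3.97 CPM in Saline libraries. Mrps18c averaged 3.15 ± 1.85 CPM in EGF libraries and 3.57 ± 0.768 CPM in Saline libraries (SD, n = 5 each). Per kilobase of exon, Mrps18a was at 6.66 ± 1.77 CPM in EGF libraries and 6.78 ± 0.591 CPM in Saline libraries, Mrps18b at 4.27 ± 2.18 CPM in EGF libraries and 6.09 ± 1.90 CPM in Saline libraries, and Mrps18c at 2.92 ± 1.72 CPM in EGF libraries and 3.32 ± 0.714 CPM in Saline libraries. On that scale, Mrps18a and Mrps18b differed by less than their spread in Saline libraries, and Mrps18c averaged below both by more than that spread. Log2 fold changes were -0.02, -0.51 and -0.18, with edgeR adjusted p of 0.968, 0.696 and 0.928. Without EGF replicate 5, those of Mrps18a and Mrps18c were above 0, at 0.12 and 0.14, and that of Mrps18b was -0.25. Mrps18b shares 30.5% of its exon bases with a gene on the other strand, and Mrps18c shares 23.2% with Gm43511 on the same strand. How reads on shared bases were counted is not given in the sources used here. Mrps30, whose protein sits in the large subunit despite its name, averaged 35.2 ± 11.1 CPM in EGF libraries and 42.8 ± 5.52 CPM in Saline libraries (log2 fold change -0.28, and -0.10 without EGF replicate 5). Mrps36, also described as a part of the 2-oxoglutarate dehydrogenase complex, had 7.52, 6.95, 6.42, 10.4 and 0 CPM in EGF replicates 1 to 5 and 10.8, 7.13, 12.7, 10.8 and 8.01 CPM in Saline replicates 1 to 5 (log2 fold change -0.66 ± 0.71, SE, and -0.34 ± 0.21 without EGF replicate 5). EGF replicates 1 and 4 lay within the Saline range and the other 3 below it.

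In the large subunit the members with the lowest p were Mrpl20, which has a bacterial counterpart, and Mrpl44, a relative of ribonuclease III. Mrpl20 had 16.3, 20.2, 29.7, 15.3 and 17.4 CPM in EGF replicates 1 to 5 and 26.0, 24.9, 29.4, 28.1 and 24.3 CPM in Saline replicates 1 to 5. Only EGF replicate 3 reached the Saline libraries, and it was above all of them. The log2 fold change was -0.42 ± 0.19 (SE; edgeR adjusted p = 0.552). Mrpl44 had 19.8, 18.9, 10.4, 17.3 and 17.6 CPM in EGF replicates 1 to 5 and 19.8, 20.4, 21.03, 27.7 and 23.0 CPM in Saline replicates 1 to 5 (log2 fold change -0.41 ± 0.20, SE; edgeR adjusted p = 0.552). Here EGF replicate 3 was instead the lowest of the 10, and only EGF replicate 1 reached the lowest Saline library, at the same 19.8 CPM. Mrpl35, Mrpl40 and Mrpl42 completed the 5 with the lowest p, with log2 fold changes of -0.29, -0.38 and -0.21 and edgeR adjusted p of 0.570, 0.568 and 0.565. Mrpl35, which has a bacterial counterpart, averaged 23.5 ± 3.69 CPM in EGF libraries and 28.7 ± 4.42 CPM in Saline libraries, and Mrpl42, found in mitochondria alone, 47.2 ± 4.47 CPM in EGF libraries and 54.7 ± 6.54 CPM in Saline libraries. Mrpl40, likewise found in mitochondria alone, averaged 16.9 ± 4.61 CPM in EGF libraries and 22.0 ± 0.918 CPM in Saline libraries, with all but EGF replicate 2 of the EGF libraries below the lowest Saline library.

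Mrpl18, Mrpl12, Mrpl52 and Mrpl24, the large-subunit genes of highest level per length, had fold changes on both sides of 0. Mrpl12 had 46.3, 50.6, 46.2, 43.8 and 58.7 CPM in EGF replicates 1 to 5 and 43.9, 44.7, 53.0, 57.9 and 60.8 CPM in Saline replicates 1 to 5, overlapping throughout (log2 fold change -0.08 ± 0.13, SE). Mrpl18 averaged 77.1 ± 10.5 CPM in EGF libraries and 76.8 ± 9.42 CPM in Saline libraries, and Mrpl24 59.7 ± 16.2 CPM in EGF libraries and 56.3 ± 6.87 CPM in Saline libraries (SD, n = 5 each), with log2 fold changes of 0.01 and 0.09. Mrpl24 shares 26.3% of its exon bases with genes on the other strand. Mrpl52, found in mitochondrial ribosomes alone, had 29.5, 39.9, 33.5, 32.3 and 7.42 CPM in EGF replicates 1 to 5 and 45.9, 43.4, 38.7, 42.2 and 40.7 CPM in Saline replicates 1 to 5. EGF replicate 2 was the only EGF library to reach the Saline range, and the log2 fold change was -0.56 ± 0.33 (SE; edgeR adjusted p = 0.587). Mrpl58, a peptidyl-tRNA hydrolase that frees stalled chains from the ribosome, had 16.6, 15.5, 13.3, 16.9 and 0 CPM in EGF replicates 1 to 5 and 18.7, 16.3, 19.7, 20.4 and 20.7 CPM in Saline replicates 1 to 5 (log2 fold change -0.62 ± 0.70, SE; edgeR adjusted p = 0.757). A count of 0 allows up to 3 counts, or 0.42 CPM, in EGF replicate 5.

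**Figure D3:**
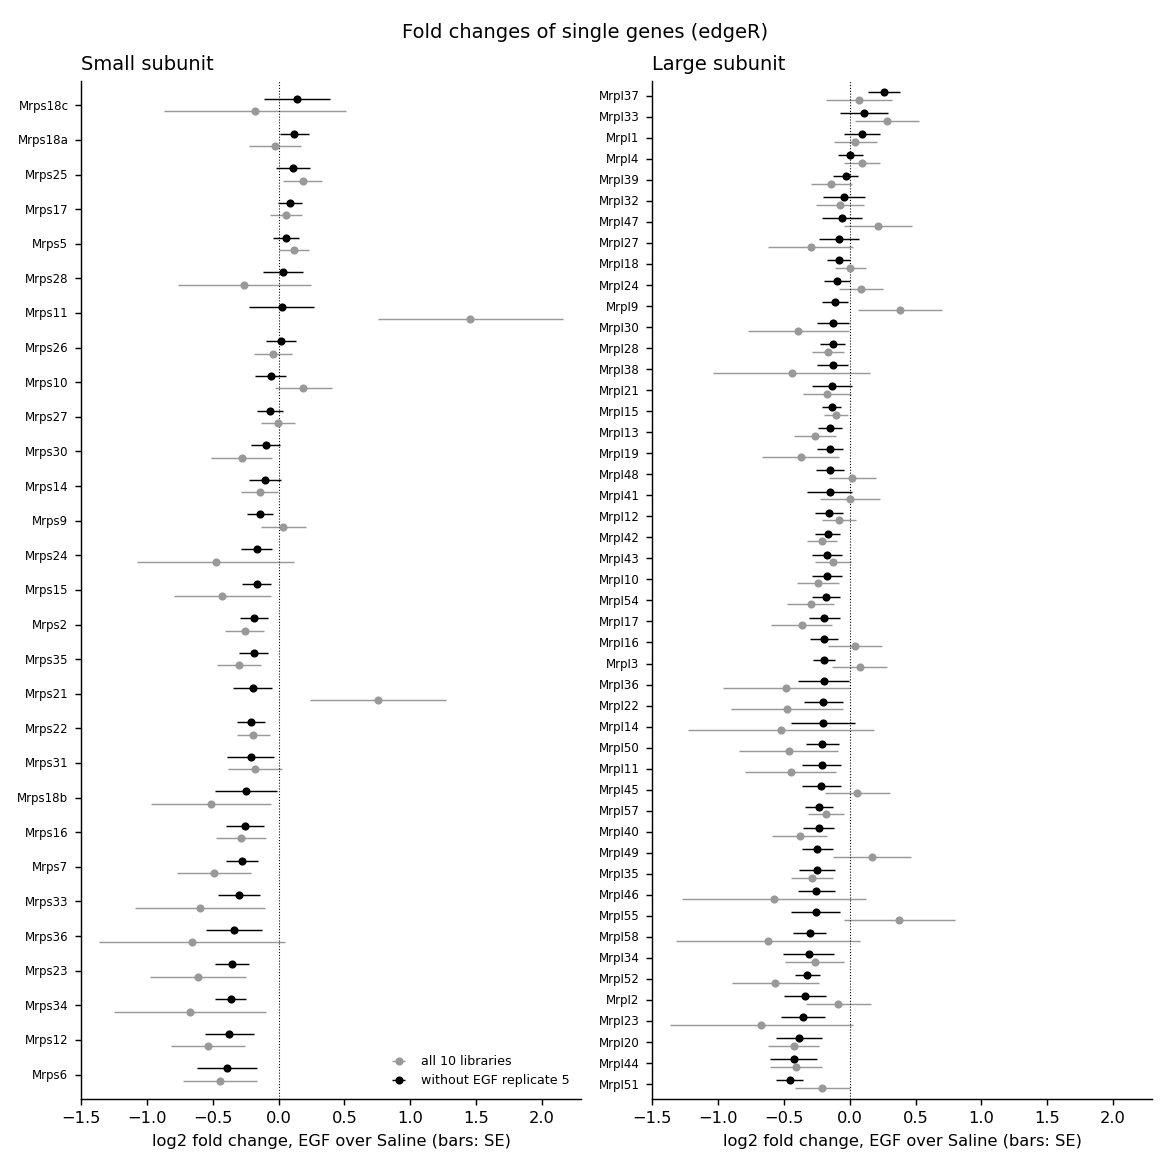
Log2 fold change of each tested member, EGF over Saline (horizontal axis; bars are standard errors from edgeR), small subunit on the left and large subunit on the right, with all 10 libraries (grey) and without EGF replicate 5 (black). Without that library the values close up between -0.45 and 0.26, 21 of 29 small-subunit and 44 of 48 large-subunit genes lie below 0, and Mrps11 and Mrps21 leave the far right.

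Mrpl53 (chromosome 6, 83109040 to 83109939, + strand) shares 88.0% of its exon bases with Gm42688 on the same strand, and how the counting treated reads on bases shared by 2 genes is not given in the sources used here. Its near absence from the counts is not read as absence of its mRNA. Symbols of 5 processed pseudogenes of these genes were counted too, with at most 8 counts in any library.

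EGF replicate 5 set the spread of most members. It was the lowest or the highest of the 10 libraries for 59 of 77 members, lowest for 38 and highest for 21 (76.6%), as it was for 81.3% of all tested genes. The next most extreme library was Saline replicate 3, highest for 23 members and lowest for 0 (29.9% of members, against 12.8% of all tested genes). In EGF replicate 5, 28 members were under 0.5 times the mean of the other 9 libraries and 5 were over 2 times it, and 12 had fewer than 10 counts, 7 of them 0. In each other library at most 1 member was at 0, which was Mrpl53.

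Members far from their level elsewhere lay more often low than high in that library, and the highest is described first. Mrps11 (chromosome 7, 78783119 to 78792989, + strand), part of the small subunit's platform, had 9.15, 7.98, 10.6, 7.79 and 84.5 CPM in EGF replicates 1 to 5 and 4.19, 10.4, 8.91, 8.47 and 11.6 CPM in Saline replicates 1 to 5. That is 603 reads in EGF replicate 5, against 33 to 87 elsewhere, and it gave a log2 fold change of 1.46 ± 0.70 (SE; edgeR adjusted p = 0.552) that was 0.02 without the library. Its head-to-head neighbour Mrpl46 (chromosome 7, 78775236 to 78783531, - strand), whose window is printed above, had 16.9, 18.03, 12.4, 16.3 and 0 CPM in EGF replicates 1 to 5 and 15.9, 18.8, 22.0, 18.7 and 19.6 CPM in Saline replicates 1 to 5. In the 9 other libraries the pair had both genes expressed, and in EGF replicate 5 one was at 9.62 times their mean and the other at 0. In GENCODE the exons of the pair overlap on opposite strands, over 7.965% of the bases of Mrps11 and 12.2% of those of Mrpl46. The strand setting of the counting is not given in the sources used here, so the counts of Mrps11 and Mrpl46 cannot be fully told apart. Mrps21 had 10.03, 13.3, 12.8, 14.4 and 72.0 CPM in EGF replicates 1 to 5 and 12.7 to 16.7 CPM in Saline libraries. Mrpl9 reached 98.3 CPM and Mrpl55 36.8 CPM in that library, against 26.1 to 37.7 CPM and 6.85 to 13.8 CPM in the other 9. At the low end, Mrpl38 and Mrps24 had 4 and 3 reads in it, against 177 to 299 and 137 to 193 elsewhere, and Mrpl14, Mrpl23, Mrps18c, Mrps36, Mrpl46, Mrpl58 and Mrpl53 had none. Mrps28 had 1.12 CPM in EGF replicate 5, against 14.04 to 17.8 CPM in the other EGF libraries and 12.2 to 18.8 CPM in Saline libraries.

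**Figure D4:**
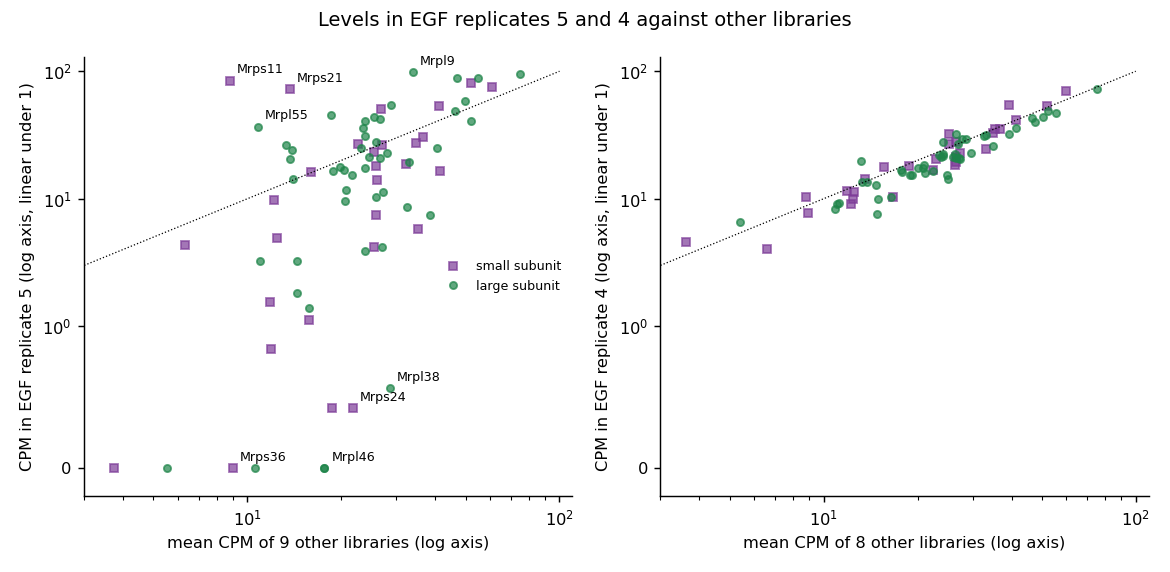
CPM of each tested member in EGF replicate 5 against its mean in the 9 other libraries (left), and in EGF replicate 4 against its mean in 8 libraries without EGF replicate 5 (right; log axes, the vertical one linear under 1; the dotted line marks equality). Members of EGF replicate 5 scatter to both sides, with Mrps11 at 84.5 CPM and 6 tested genes at 0, while those of EGF replicate 4 stay near the line.

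Apart from that library the members were steady. The coefficient of variation of a member across libraries had a median of 12.6% over 4 EGF libraries and 11.6% over the Saline libraries, where counting error alone gives a median of 7.19% in Saline libraries, and 31.6% over all 5 EGF libraries. In Saline libraries Mrpl49 varied least, at 2.91%, and Mrps11 most, at 32.3%. The value of Mrpl49 is below the 8.02% that counting error alone gives for it, so it is not read as a steadier gene.

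**Figure D5:**
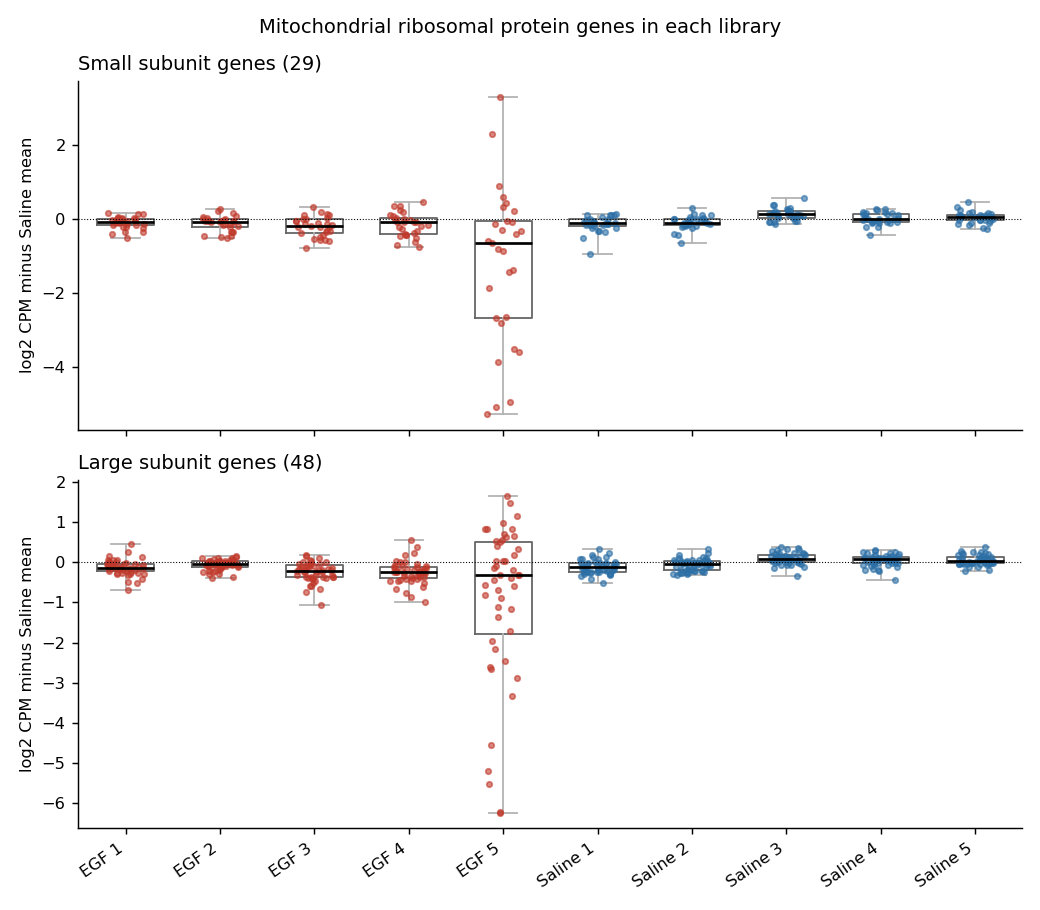
Log2 CPM of each tested member minus its Saline mean (vertical axis; points are genes, boxes give quartiles, whiskers the full range) in each EGF (red) and Saline (blue) library, small subunit above and large subunit below. EGF replicate 5 spreads over several log2 units, while in the other libraries most members lie within 1 log2 unit of the Saline mean.

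Without EGF replicate 5, the medians of both subunits were again below 0. The median log2 fold change was -0.17 in the small subunit and -0.18 in the large subunit (-0.26 and -0.19 with all 10 libraries), against -0.00023 over 13104 tested genes, and 21 of 29 and 44 of 48 members lay below 0, where 50% of all genes did. The log2 ratios of the summed means were -0.11 in the small subunit and -0.16 in the large subunit without that library, against -0.11 and -0.14 with it. By edgeR 0 members were called (0.0611% of all genes), with a lowest adjusted p of 0.136. Unadjusted p was under 0.05 for 10 of 77 members (13.0%), a smaller share than the 15.8% of all tested genes. EGF was lower in 9 of the 10, where 7.39% of all genes had such a p and were lower and 8.38% were higher. Mrps7, Mrps23, Mrps34, Mrpl3, Mrpl20, Mrpl44, Mrpl51, Mrpl52 and Mrpl58 had lower means in EGF libraries, and Mrpl37 had a higher one, at 29.9 ± 3.73 CPM in EGF libraries (n = 4) and 24.9 ± 2.93 CPM in Saline libraries (n = 5).

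Mrpl51, a large-subunit protein of mitochondria alone, had the lowest p of that fit. It had 24.2, 23.2, 19.8, 20.8 and 42.4 CPM in EGF replicates 1 to 5 and 26.1, 29.4, 32.3, 32.3 and 30.4 CPM in Saline replicates 1 to 5. EGF replicates 1 to 4 were below all Saline libraries and EGF replicate 5 above all of them. The log2 fold change was -0.21 ± 0.21 (SE) with all 10 libraries and -0.45 ± 0.10 without EGF replicate 5, with edgeR adjusted p of 0.729 and 0.136. DESeq2 without that library gave the same fold change an adjusted p of 0.0203, which made Mrpl51 the only member called in any setting tried, where DESeq2 called 2.49% of genes, and 1.03% as lower in EGF. Mrps23, Mrps34 and Mrpl49 were the other members whose 4 EGF values lay below all Saline values, 4 of 77 (5.19%) in all, where groups did not overlap in either direction for 5.01% of tested genes and EGF was the lower one for 2.36%. Mrpl52 was at 33.8 ± 4.42 CPM in 4 EGF libraries and 42.2 ± 2.72 CPM in 5 Saline libraries (SD; log2 fold change -0.32 ± 0.10, SE; edgeR adjusted p = 0.179).

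EGF replicates 3 and 4 were each the lowest of the 10 for 13 members, against 3 for replicate 1 and 1 for replicate 2. Replicate 3 was the lowest or highest for 18.2% of members and 15.6% of all tested genes, and replicate 4 for 20.8% of members and 17.8% of all tested genes. Both also carried more Malat1 and less of the cytosolic ribosomal protein genes (34588 and 32111 CPM, against 37585 and 41606 CPM in EGF replicates 1 and 2 and 38949 to 44998 CPM in Saline libraries). Without EGF replicates 3, 4 and 5 the medians were -0.12 in the small subunit and -0.11 in the large subunit, with 24 of 29 and 40 of 48 members below 0. The part of these library differences, and of the neutrophil, monocyte and other cell type markers given above, in the lean of the members was not tested.

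Genes that work with the mitochondrial ribosome were taken as lists. Of 5 ribosomal proteins without an Mrp symbol (Dap3, Ptcd3, Chchd1, Aurkaip1 and Gadd45gip1), 0 passed the test and 2 lay below 0. Ptcd3, an RNA-binding protein of the small subunit, averaged 54.2 ± 4.12 CPM in EGF libraries and 48.3 ± 4.02 CPM in Saline libraries, and Gadd45gip1 34.9 ± 8.57 CPM in EGF libraries and 43.0 ± 3.56 CPM in Saline libraries (SD, n = 5 each), with log2 fold changes of 0.17 and -0.30. Among 14 translation factors 8 lay below 0 (median log2 fold change -0.07), among 23 assembly factors 17 (median -0.21), among 17 aminoacyl-tRNA synthetases of mitochondria 9 (median -0.0031), and among 4 transcription genes of mitochondria 4 (median -0.15). By edgeR 0 of these genes passed the test. Unadjusted edgeR p was under 0.05 for 1 of them, an assembly factor, where it was for 8.87% of all tested genes. This was the methyltransferase-like gene Mettl17, with 13.7 ± 9.31 CPM in EGF libraries and 7.60 ± 0.925 CPM in Saline libraries. The elongation factor Gfm1 averaged 45.7 ± 6.20 CPM in EGF libraries and 54.2 ± 4.99 CPM in Saline libraries (log2 fold change -0.25). Without EGF replicate 5, 4 of the 5 proteins without an Mrp symbol lay below 0 (median -0.09), and 9 of 14 translation factors (median -0.12). Below 0 in that fit were also 15 of 23 assembly factors (median -0.08), 6 of 17 synthetases (median 0.04) and 3 of 4 transcription genes (median -0.18).

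Other nuclear gene groups also lay mostly below 0. Of 78 tested genes of cytosolic ribosomal proteins 73 lay below 0, with a median of -0.24, and of 74 nuclear respiratory chain genes 64, with a median of -0.23, again with 0 called by edgeR. Unadjusted edgeR p was under 0.05 for 23 of the 78 and 11 of the 74, against 8.87% of all tested genes. Without EGF replicate 5 it was for 49 of the 78 and 31 of the 74, against 15.8% of all tested genes, and 77 and 68 lay below 0. The cytosolic genes summed to 36251 ± 3576 CPM in EGF libraries and 41936 ± 2661 CPM in Saline libraries, and the respiratory chain genes to 4586 ± 278 CPM in EGF libraries and 5196 ± 358 CPM in Saline libraries (SD, n = 5 each). The mRNAs coded by mitochondrial DNA, the templates of the mitochondrial ribosome, lay mostly above 0, 7 of 8 tested (median 0.29), with 0 called. They summed to 6238 ± 1107 CPM in EGF libraries and 4959 ± 612 CPM in Saline libraries, overlapping. The highest sums were in EGF replicates 3 and 4 (7064 and 7705 CPM). Unadjusted edgeR p was under 0.05 for 2 of these 8 genes, against 8.87% of all tested genes. In the fit without EGF replicate 5 it was for 7 of the 8, against 15.8%, and 7 again lay above 0 (median 0.38), with 0 called. These lists share their libraries with the members and say nothing independent of them.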

How the data were processed

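HSPC RNA of 5 EGF and 5 Saline libraries was sequenced. Per the labels' protocols it was isolated with the RNeasy Micro kit, depleted of rRNA, turned into libraries (Clontech) and amplified by PCR. The builds GRCm38 and mm10, bcl2fastq 2.17 and STAR are named in the submitters' processing notes; how reads were counted, on which strand and over which annotation is not given in the sources used here. Each deposited file holds raw counts, whole numbers for 55573 genes, with no normalization. In 27 rows the symbols differed between the files, and names were taken from GENCODE by gene identifier. No library repeated another: counts of pairs in a group gave a chi-square of 7.08 to 111 per degree of freedom, above sampling noise.

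EGF was compared with Saline by edgeR 4.0.16 (R 4.3.3): trimmed mean of M values scaling, filterByExpr (minimum count 10), then its quasi-likelihood F test over all 10 libraries and Benjamini-Hochberg adjustment over 12874 genes at 0.05. Standard errors were derived from the F statistic. CPM used the same scaling, and log2 CPM in the plot by library used a prior count of 2. Gene positions, exon lengths and exon overlaps are from the GENCODE annotation of GRCm38, and promoter sequences from RefSeq (GRCm38.p6). Alternatives were other scalings, DESeq2 1.42.0, limma-voom (limma 3.58.1) with quality weights, other filters, the replicate number as a block, and libraries left out; fits without EGF replicate 5 combined with another change were added after the data were seen. Of these, the edgeR fit was checked on simulated counts, which held no outlying library. Depth was 6805106 to 8370820 counts per library; PCR copies cannot be told apart, so limits from a count of 0 (3 counts) cover counting error only.

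The members and all gene lists were chosen with earlier results of these data known. Members given with values were, in each subunit, the 5 with the lowest p and the 4 with the highest level per length, any called in some setting, those below the filter, and Mrpl12, Mrpl58, Mrps36, Mrps30 and Mrps18a to Mrps18c; of other lists, up to 2 genes with the lowest p. Mrps34, Mrpl49, Mrpl46, Mrpl9, Mrpl55, Mrpl38, Mrps24, Mrpl3, Mrpl37, Mrpl14, Mrpl23, Chchd1, Dap3 and Aurkaip1 were named after their values were seen or as the whole of a list.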

Additional observations from a re-analysis of the deposited data

Results flagged for a closer look

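Single libraries far from the rest of their group were looked for among the named members and the summed levels, by the gap to the nearest library over the group's range; chance alone gives such a gap in about 1 in 20 groups. Of 54 groups tested 9 had one, 7 of them in EGF replicate 5, which was also apart in genes detected and Malat1 share. In that library Mrps11 was at 84.47 CPM, Mrps21 at 72.0 CPM, Mrpl18 at 95.67 CPM, Mrpl24 at 88.11 CPM and Mrpl51 at 42.44 CPM, each above the other 4 EGF libraries, while Mrps28 was at 1.121 CPM and Mrpl58 at 0 CPM, below them. In EGF replicate 3, Mrpl44 was at 10.41 CPM, against 17.3 to 19.8 CPM in the other EGF libraries, and the summed small-subunit genes were at 634.9 CPM, against 676 to 687 CPM in the other EGF libraries.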

How the results depend on the processing

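Under every alternative run, the medians of both subunits stayed below 0 (small subunit -0.30 to -0.12, large subunit -0.23 to -0.11), as did the log2 ratios of the sums. Leaving out each library in turn, the medians ran from -0.30 to -0.17 and from -0.23 to -0.15, members below 0 from 21 to 22 and from 33 to 44, the ratios of sums from -0.14 to -0.07 and from -0.17 to -0.12, and members called stayed at 0. With Mrps18a and Mrps30 counted in the large subunit, 20 small-subunit and 35 large-subunit genes lay below 0.

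Counts of genes called higher and lower over all genes were small and unsteady, and their cause was not tested. Against 1 and 0 by edgeR, DESeq2 called 36 and 20, limma-voom with quality weights 8 and 4, and library size only 0 higher. With single libraries left out both counts ran from 0 to 4, and 0 were higher without EGF replicates 3 and 4. Without EGF replicate 5 they were 4 and 4 under each scaling and 183 and 130 by DESeq2, with 1 member called (Mrpl51, log2 fold change -0.45, adjusted p = 0.0203). With a further library left out besides EGF replicate 5, the counts were 3 and 4 (EGF replicate 1), 17 and 3 (EGF replicate 2), 1 and 0 (EGF replicate 3, EGF replicate 4 or Saline replicate 3), 21 and 27 (Saline replicate 1), 5 and 4 (Saline replicate 2), 2 and 2 (Saline replicate 4) and 2 and 3 (Saline replicate 5).

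Replicate numbers did not pair the samples: same-numbered libraries had correlations of deviations between -0.08 and 0.02, and none correlated best with its own number. The replicate block gave 0 genes higher, medians of -0.29 and -0.19, and 22 and 38 members below 0.

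Some single fold changes near 0 or set by EGF replicate 5 changed sign, none of them called. Mrpl18 (0.01) was -0.00068 by library size, -0.018 by upper quartile scaling, -0.10 by limma-voom, -0.0053 with no filter and -0.10 without EGF replicates 3, 4 and 5. Limma-voom gave -0.049 for Mrpl24, 0.080 for Mrps18a, 0.071 for Mrps18c and -0.25 for Mrps21. Without EGF replicates 3, 4 and 5, Mrpl24 was at -0.050, Mrps11 at -0.025, Mrps18a at 0.043, Mrps18c at 0.18 and Mrps21 at -0.31. Without EGF replicate 5, DESeq2 gave -0.083 for Mrpl18, -0.10 for Mrpl24, 0.12 for Mrps18a, 0.15 for Mrps18c, -0.19 for Mrps21 and 0.037 for Mrps28. With single libraries left out, Mrpl18 ran from -0.084 to 0.055, Mrpl24 from -0.10 to 0.16, Mrps18a from -0.14 to 0.12, Mrps18c from -0.35 to 0.14, Mrps21 from -0.20 to 0.95 and Mrps28 from -0.40 to 0.035.

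Few reads limit some members: 12 had under 10 counts in EGF replicate 5, against 1 in each other library. Its total of 7781772 counts lay within the range of the others, but it had counts for 12731 genes, against 18734 to 20046. At the library depths 0 counts allows 0.354 to 0.428 CPM by counting error alone, and the low number of genes in EGF replicate 5 is not covered by that limit.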

Other observations

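Not all mRNAs of mitochondrial DNA were counted alike. The cytochrome oxidase gene mt-Co1 averaged 2102 ± 360 CPM in EGF libraries and 1607 ± 161 CPM in Saline libraries, and mt-Nd6 189 ± 90.3 CPM in EGF libraries and 111 ± 14.5 CPM in Saline libraries (SD, n = 5 each). These had the lowest p of the 8 tested (log2 fold changes 0.39 and 0.76, edgeR adjusted p of 0.552 for each). The other 5 of the 13, mt-Co2, mt-Co3, mt-Atp6, mt-Atp8 and mt-Nd4l, were below the filter in both groups, with means of at most 0.182 CPM in EGF libraries and 0.146 CPM in Saline libraries. The summed level of this list therefore rests on 8 of its 13 mRNAs.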
